A study of Danio rerio with 14 samples.

Results

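The comparison described here is that of ventricles overexpressing wild-type human TMEM43 with ventricles of non-transgenic fish, over all measured genes. It uses 7 of the 14 RNA-seq libraries of the series: 4 from the TMEM43-WT line and 3 from non-transgenic controls (NTG), chosen by their labels. All libraries come from adult zebrafish of strain TL1 that received no treatment. TMEM43-WT replicate 1 was labelled 5 months old, replicate 4 18 months, replicate 5 20 months and replicate 6 19 months, while NTG replicates 2 and 3 were labelled 5 months and replicate 4 21 months. The other 7 libraries come from the mutant lines TMEM43-P111L (3 libraries, 5, 20 and 19 months) and TMEM43-S358L (4 libraries, 3 at 5 months and 1 at 19 months) and are given only beside genes of this comparison. In the TMEM43-WT line the zebrafish myl7 promoter drives a fusion of eGFP and human TMEM43 in cardiomyocytes, from a Tol2 insertion. The line was 1 transgenic line, and no group carried eGFP alone, so the effects of wild-type TMEM43, of the tag and of the place of insertion cannot be told apart. Each library was made from pooled ventricles, so p-values measure the spread between pools. Because age differs between the groups, every named gene was also compared within the 5-month libraries and within the 18- to 21-month libraries.

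TMEM43, also called LUMA, is a transmembrane protein of the inner nuclear membrane and the endoplasmic reticulum. At the nuclear envelope it binds lamins and emerin, which belong to the proteins that tie the nuclear lamina to the cytoskeleton. Its p.S358L variant causes arrhythmogenic right ventricular cardiomyopathy, a disease in which heart muscle is lost and replaced by fat and fibrous tissue. The question of this comparison is what an excess of the normal protein does to gene expression in the adult ventricle.

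Of 17437 genes tested, 1454 (8.34%) were differentially expressed (DEGs) in TMEM43-WT ventricles, at an adjusted p below 0.05. Of these, 714 (4.09%) were upregulated and 740 (4.24%) downregulated, and these shares are the background for all counts of gene groups below. An unadjusted p below 0.05, also counted below for some groups, was reached by 4313 of all tested genes (24.7%). The median log2 fold change was 1.33 over the upregulated and -1.56 over the downregulated genes, against -0.01 over all tested genes. For 1374 of the 1454 DEGs the 4 TMEM43-WT libraries did not overlap the 3 NTG libraries, which held for 21.7% of all tested genes. Total reads ranged from 20977823 to 22326903 in TMEM43-WT and from 20621770 to 25573261 in NTG libraries. Leaving out single libraries lowered the number of DEGs, to 707 without NTG replicate 3, 738 without NTG replicate 2 and 792 without TMEM43-WT replicate 5. Within the 5-month libraries 8 genes were called and within the 18- to 21-month libraries 377, each with a single library in 1 group, which is assumed to vary like the others. The direction was the same as in the full comparison at both ages for 1452 of the 1454 DEGs, which were chosen on these same libraries. Some differences were much smaller within the 5-month or within the older libraries, and values within an age are printed below for only some genes. Some genes that were not called had opposite signs at the 2 ages. A value near 0 over all libraries can therefore join differences of opposite sign. Calls are those of edgeR unless another tool is named, and of 53 genes named below as not called, DESeq2 called 7 (vmhc, tnnt2a, myh6, pkp2, nkx2.5, mpeg1.1 and mpx) and limma-voom 0. Of 21 gene lists with at least 4 calls, the number of calls was lower by over 1.5 times in 17 without NTG replicate 3, in 15 without NTG replicate 2, in 10, 9, 8 and 6 without TMEM43-WT replicates 5, 4, 6 and 1, and in 0 without NTG replicate 4.

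The largest changes were found in enzymes, signalling proteins and muscle proteins. Among genes that averaged 5 CPM or more (a gene's reads relative to the TMM-scaled size of its library), the 12 largest increases included the matrix proteases mmp13a and mmp9, the sulfotransferases sult2st1 and sult2st2, the hedgehog ligand dhh, the Z-disc protein synpo2la, the muscle regulator smtnl1 and the cadherin cdh13. The others were the kinases sik2a, dmpk and dgkh (a diacylglycerol kinase) and ago3b, an Argonaute protein that binds small RNAs. The 12 largest decreases were those of adcy7 (adenylate cyclase), vmo1a, serpinb1l2 (a protease inhibitor), cpxm1b, ckmb (muscle creatine kinase), bnip4, fam234a, igfbp6b (which binds insulin-like growth factors), hbp1 (a transcriptional repressor), slc25a32a (a mitochondrial carrier), cyp2p7 (a cytochrome P450) and ccdc39 (a protein of cilia).

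Desert hedgehog, dhh, a secreted ligand of the hedgehog pathway, had 19.1, 18.8, 9.21 and 4.62 CPM in TMEM43-WT ventricles and 0.871, 2.42 and 1.84 CPM in NTG ventricles (log2 fold change 2.91 ± 0.56 SE, adjusted p = 0.0072). All TMEM43-WT libraries were above all NTG libraries, with replicate 6 the lowest of them. The smoothelin-like gene smtnl1, whose product modulates muscle contraction, had 50.1, 47.5, 35.7 and 43.1 CPM in TMEM43-WT and 4.86, 9.03 and 8.96 CPM in NTG (log2 fold change 2.53 ± 0.28 SE, adjusted p = 0.000164), far apart from each other. Igfbp6b had 19.6, 16.7, 9.02 and 4.66 CPM in TMEM43-WT against 84.1, 114 and 60.7 CPM in NTG (log2 fold change -2.79 ± 0.53 SE, adjusted p = 0.00845). The carboxypeptidase-like gene cpxm1b had 0.569, 2.07, 1.7 and 1.89 CPM in TMEM43-WT and 13.3, 14.1 and 15.7 CPM in NTG (log2 fold change -3.19 ± 0.40 SE, adjusted p = 0.000437), and no TMEM43-WT library came near the NTG level.

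Mmp13a, a collagenase, had 40.3, 5.73, 2.35 and 4.87 CPM in TMEM43-WT and 0.183, 0.745 and 0.335 CPM in NTG (log2 fold change 4.97 ± 1.25 SE, adjusted p = 0.0306), and mmp9, a gelatinase, had 34.1, 7.89, 3.87 and 3.78 CPM in TMEM43-WT and 0.596, 1.68 and 1.38 CPM in NTG (log2 fold change 3.34 ± 0.88 SE, adjusted p = 0.033). In both, replicate 1, the 5-month library, was far above the other TMEM43-WT libraries. Of the 24 genes, 19 were called whichever of the 7 libraries was left out. Without NTG replicate 3, dmpk, slc25a32a, dgkh, mmp9 and mmp13a were not called. All 24 genes kept their direction in every such fit, which follows from choosing genes without overlap between the groups.

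**Figure D1:**
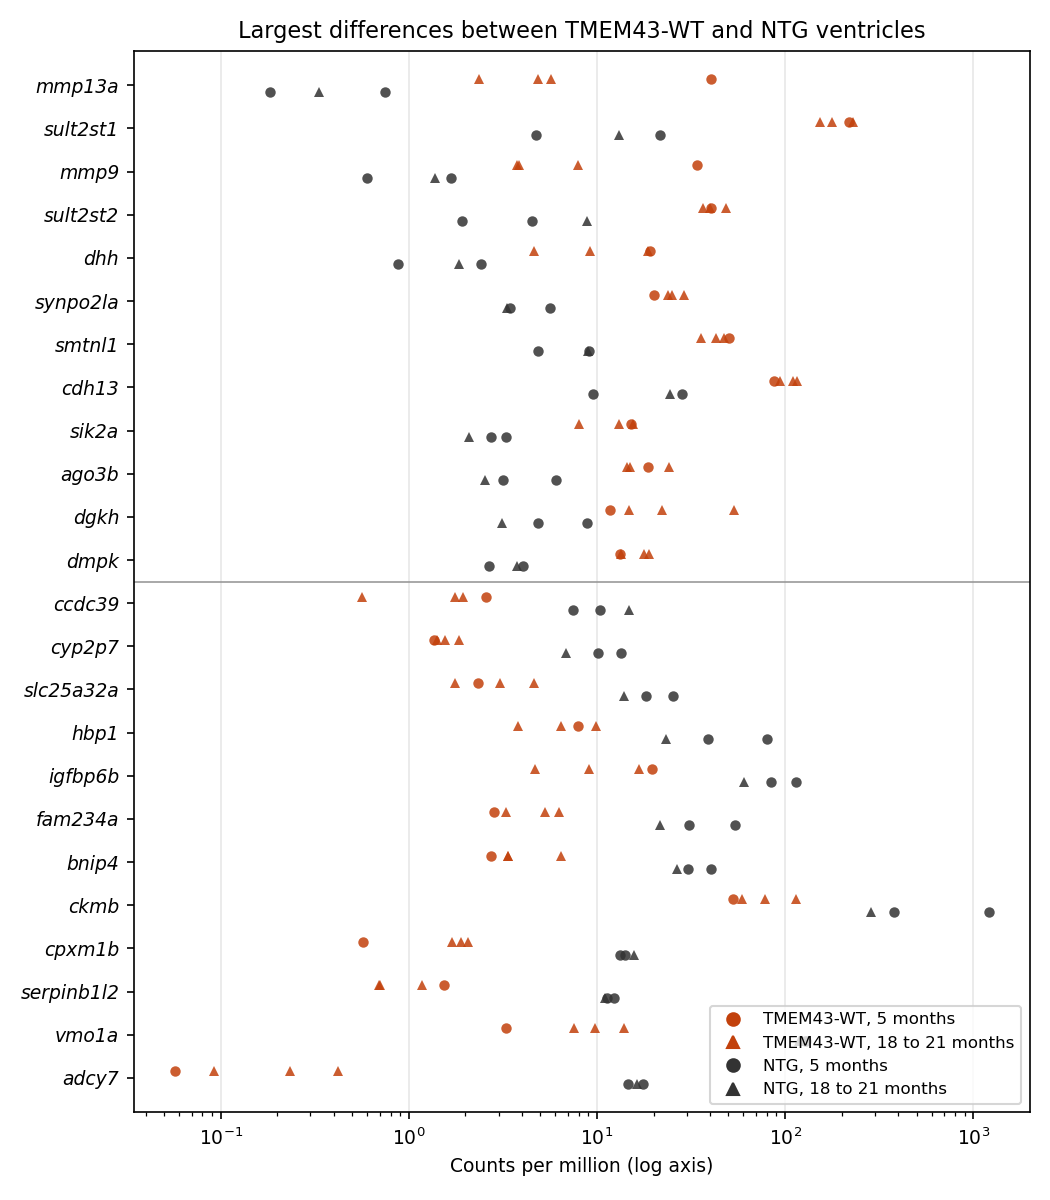
CPM (log axis) of the 12 genes with the largest increase (above the line) and the 12 with the largest decrease (below it), in 4 TMEM43-WT (orange, upper row of each gene) and 3 NTG libraries (grey, lower row). Circles are 5-month and triangles 18- to 21-month libraries. The groups do not overlap in any of these genes, which the choice of genes required, and mmp13a and mmp9 show the single high TMEM43-WT library at 40.3 and 34.1 CPM.

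Genes of the contractile apparatus were called at a share near that of all genes. The increases were mostly Z-disc or cytoskeletal genes, which are the largest part of this list, and were too few to compare its parts. The sarcomere is built of myosin thick filaments and actin thin filaments, and its Z-discs anchor the thin filaments. Of 108 sarcomere genes tested, 8 were upregulated and 2 downregulated (9.26%, against 8.34% of all genes), with 5 of the 8 among 45 Z-disc and cytoskeletal genes, 2 among 26 thin filament genes and 0 of 19 thick filament genes called by edgeR (3 at an unadjusted p below 0.05, and 2 called by DESeq2). The alpha-actinin gene actn2b, on chromosome 17 of GRCz11 from 20122019 to 20143916, had 3937, 3561, 4726 and 3201 CPM in TMEM43-WT and 1044, 1395 and 803 CPM in NTG (log2 fold change 1.83 ± 0.26 SE, adjusted p = 0.00105). Alpha-actinin crosslinks actin filaments at the Z-disc, and the lowest TMEM43-WT library was above the highest NTG library. Synpo2la, which binds alpha-actinin and filamin in mammals, had 20.2, 23.9, 25.1 and 28.9 CPM in TMEM43-WT and 3.44, 5.63 and 3.31 CPM in NTG (log2 fold change 2.57 ± 0.29 SE, adjusted p = 0.000237). The tropomyosin gene tpm2 had 227, 157, 197 and 189.5 CPM in TMEM43-WT and 112, 64.8 and 81 CPM in NTG (log2 fold change 1.17 ± 0.23 SE, adjusted p = 0.00724).

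The filamin gene flncb rose by 0.90 (adjusted p = 0.0326), with 216 to 287 CPM in TMEM43-WT and 117 to 175 CPM in NTG libraries. Ankrd1a, an ankyrin repeat gene that is induced in stretched heart muscle of mammals, was low in both groups, with 6.77, 6.9, 5.71 and 6.29 CPM in TMEM43-WT and 0.138, 0.326 and 0.963 CPM in NTG (log2 fold change 3.72 ± 0.83 SE, adjusted p = 0.0144). The caveolar coat gene cavin4b had 0.91, 4.74, 2.58 and 10.1 CPM in TMEM43-WT and 0.138, 0 and 0.0837 CPM in NTG (log2 fold change 5.86 ± 1.03 SE, adjusted p = 0.00431). Fbxo40.1, a muscle ubiquitin ligase subunit, was lower, with 6.2, 5.63, 5.39 and 3.65 CPM in TMEM43-WT and 8.34, 17.2 and 9.38 CPM in NTG (log2 fold change -1.16 ± 0.33 SE, adjusted p = 0.0398), and the troponin T gene tnnt2d had 0, 0, 0 and 0 reads in TMEM43-WT and 16, 5 and 8 reads in NTG libraries. At this depth the absence of tnnt2d reads in TMEM43-WT separates the groups by only a few reads per library.

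The main sarcomere genes of the ventricle gave smaller differences that did not pass the edgeR test, although DESeq2 called vmhc, tnnt2a and the atrial gene myh6. Vmhc, the ventricular myosin heavy chain, had 708, 697, 961 and 934 CPM in TMEM43-WT and 1450.0, 1080.0 and 1236 CPM in NTG (log2 fold change -0.60 ± 0.19 SE, adjusted p = 0.063), without overlap between the groups. Tnnt2a, cardiac troponin T, had 5007, 4361, 5418 and 4401 CPM in TMEM43-WT and 6704, 5697 and 7193 CPM in NTG (log2 fold change -0.45 ± 0.17 SE, adjusted p = 0.105), also without overlap. The atrial myosin gene myh6 had 24.8 to 36.6 CPM in TMEM43-WT and 9.38 to 18.5 CPM in NTG libraries (log2 fold change 1.25 ± 0.46 SE, adjusted p = 0.103), so a marker of atrial muscle also separated the groups. Myh6 was also called by edgeR in the fit of the TMEM43-WT and NTG libraries alone and within the older libraries (log2 fold change 1.76, against 1.03 within the 5-month libraries), and its part in the results was not tested. In bulk ventricles, a different number of cells of a type and a different amount of RNA per cell cannot be told apart. For mybpc3, csrp3 and desma (myosin-binding protein C, muscle LIM protein and desmin) the log2 fold changes were 0.18, 0.02 and 0.08, with adjusted p of 0.568, 0.963 and 0.856. Myl7, like vmhc and tnnt2a a marker of ventricular muscle, and ttn.2 were not called by edgeR either (adjusted p = 0.382 and 0.502). The natriuretic peptide genes nppa and nppb, which rise under wall stress in mammals, had log2 fold changes of 0.05 and -0.07 (adjusted p = 0.916 and 0.955), with overlapping groups. The nppb difference had opposite signs at the 2 ages, with log2 fold changes of 1.304 within the 5-month libraries, not called, and -1.22 within the older libraries, called. It had 232 to 509 CPM in TMEM43-WT and 86.3 to 718 CPM in NTG libraries, of which NTG replicate 4, the old control, was the highest.

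At cell junctions, 3 of 64 genes were upregulated (4.69%) and 0 downregulated, and all 3 were listed here with adherens junction genes. They were cdh13, which had 87.1, 115, 110.4 and 94.1 CPM in TMEM43-WT and 9.58, 28.4 and 24.3 CPM in NTG (log2 fold change 2.29 ± 0.30 SE, adjusted p = 0.000611), cdh6, which had 4.66, 6.38, 3.82 and 7.97 CPM in TMEM43-WT and 1.7, 1.58 and 1.63 CPM in NTG (log2 fold change 1.80 ± 0.51 SE, adjusted p = 0.0376), and zyx, encoding the actin-binding protein zyxin, which had 122, 133, 156 and 147 CPM in TMEM43-WT and 66.1, 42.8 and 92.9 CPM in NTG (log2 fold change 1.05, adjusted p = 0.0326). None of the 11 desmosome genes, the group in which most genes of arrhythmogenic cardiomyopathy lie, was called by edgeR (3 had an unadjusted p below 0.05, and 3 were called by DESeq2). Pkp2 (plakophilin 2) had 43.8, 44.1, 26 and 16.9 CPM in TMEM43-WT and 14.1, 11.4 and 25 CPM in NTG (log2 fold change 0.96 ± 0.34 SE, adjusted p = 0.0875), with overlap. DESeq2 called pkp2, and edgeR called it without NTG replicate 4 and without TMEM43-WT replicate 6. The log2 fold change of pkp2 was 1.78 within the 5-month and 0.21 within the older libraries. Dsc2l, dspa and jupa had log2 fold changes of 0.29, -0.24 and -0.23 with adjusted p of at least 0.358. The gap junction gene cx43 differed by 0.04 (adjusted p = 0.956), with log2 fold changes of 0.82 within the 5-month and -0.38 within the older libraries. Another cadherin gene, cdh2, was not called by edgeR (adjusted p = 0.962).

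Genes of the nuclear envelope, where TMEM43 itself resides, also gave no call. Of 26 such genes tested, 0 were called by edgeR and 1 by DESeq2, and their median log2 fold change was -0.01. An unadjusted p below 0.05 was reached by 8 of them, against 24.7% of all tested genes. Lmna had 35.6, 44.2, 32.5 and 37.2 CPM in TMEM43-WT and 31.5, 27.1 and 25.3 CPM in NTG, and its log2 fold change of 0.42 missed the threshold (adjusted p = 0.18) although the groups did not overlap. Emd and sun1 differed by 0.28 and -0.29 on the log2 scale and were not called (adjusted p = 0.506 and 0.723). For sun1 the log2 fold change was -2.29 within the 5-month and 0.33 within the older libraries. Endogenous zebrafish tmem43 had 17.6, 16.6, 16.7 and 10.9 CPM in TMEM43-WT and 11.7, 13 and 18.7 CPM in NTG (log2 fold change 0.09 ± 0.30 SE, adjusted p = 0.888). Its log2 fold change was 0.50 within the 5-month and -0.35 within the older libraries. The level of the human transgene was not analysed here. Of 59 stress and hypertrophy genes, 1 was upregulated and 2 downregulated (5.08%). In this group of contractile, junction and stress genes, actn2b, synpo2la, cavin4b, tpm2, tnnt2d, cdh13, insra (an insulin receptor gene, log2 fold change -1.16, adjusted p = 0.00462) and igfbp6b were called whichever library was left out. Insra and igfbp6b are neither contractile nor junction genes and were counted with them. Of the 13 genes called here, 8 were called without NTG replicate 3.

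Calcium handling genes were called in both directions, at a share near that of all genes. In cardiomyocytes calcium enters through channels, is released from the sarcoplasmic reticulum at junctions held by junctophilins and is pumped back by the SERCA ATPase. Of 71 calcium handling genes, 3 were upregulated and 4 downregulated (9.86%, against 8.34% of all genes). Without NTG replicate 3 the counts were 1 and 2. Atp2a2b, 1 of the SERCA2 paralogs, had 77.2, 98.7, 109.5 and 104 CPM in TMEM43-WT and 45.6, 16.1 and 30.9 CPM in NTG (log2 fold change 1.66 ± 0.31 SE, adjusted p = 0.00595), and every TMEM43-WT library was above every NTG library. The other paralog, atp2a2a, had 3139, 2668, 3536 and 3510.0 CPM in TMEM43-WT and 4175, 2437 and 2321 CPM in NTG (log2 fold change 0.11 ± 0.22 SE, adjusted p = 0.805), and its groups overlapped.

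Junctophilin 2, jph2, which couples the plasma membrane to the sarcoplasmic reticulum, had 37, 27.3, 28.1 and 44.8 CPM in TMEM43-WT and 104, 69 and 75.9 CPM in NTG (log2 fold change -1.27 ± 0.21 SE, adjusted p = 0.00274). All NTG libraries were above all TMEM43-WT libraries, and the log2 fold change was -1.22 within the 5-month and -1.18 within the older libraries. The skeletal-type junctophilin gene jph1b was higher, with 21.6, 19.3, 24.5 and 23.5 CPM in TMEM43-WT and 15.2, 9.78 and 9.84 CPM in NTG (log2 fold change 0.94 ± 0.27 SE, adjusted p = 0.0422). Hrc, a calcium-binding protein of the sarcoplasmic reticulum lumen, had 132, 84.5, 108 and 90.5 CPM in TMEM43-WT and 247, 165 and 195 CPM in NTG (log2 fold change -0.96 ± 0.25 SE, adjusted p = 0.0278). The release channel gene ryr2b, the buffer gene casq2 and the exchanger gene slc8a1a had log2 fold changes of 0.21, -0.18 and 0.00 (adjusted p = 0.586, 0.695 and 0.999), with overlapping groups.

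Of the calcium-dependent NFAT transcription factors, nfatc4 was upregulated, with 3.35, 3.94, 4.74 and 5.71 CPM in TMEM43-WT and 2.06, 1.4 and 1.84 CPM in NTG (log2 fold change 1.33 ± 0.32 SE, adjusted p = 0.0196). Nfatc3b was downregulated, with 2.33, 2.07, 1.75 and 2.6 CPM in TMEM43-WT and 4.81, 9.31 and 5.78 CPM in NTG (log2 fold change -1.60 ± 0.41 SE, adjusted p = 0.0273). Mcur1 (listed as zgc:165532), a regulator of the mitochondrial calcium uniporter in mammals, was lower by 0.73 on the log2 scale (adjusted p = 0.0367).

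Of 51 genes of ion channels and pumps, 4 were upregulated and 1 downregulated (9.8%). The sodium pump subunit gene atp1b2a had 124, 71.9, 104 and 102 CPM in TMEM43-WT and 59, 37.4 and 54.9 CPM in NTG (log2 fold change 0.99 ± 0.26 SE, adjusted p = 0.0286). The potassium channel subunit gene kcng1 had 32.5, 45.3, 38.5 and 25.1 CPM in TMEM43-WT and 7.33, 4.47 and 22.3 CPM in NTG (log2 fold change 1.64 ± 0.44 SE, adjusted p = 0.0362), and NTG replicate 4, the old control, lay close below the lowest TMEM43-WT library. The inward rectifier gene kcnj12a was lower, at 0.171, 0.329, 0.414 and 0.503 CPM in TMEM43-WT and 2.34, 3.17 and 1.09 CPM in NTG (log2 fold change -2.59 ± 0.57 SE, adjusted p = 0.012). The other increases were cacna1aa and cacnb4b (log2 fold changes 4.94 and 2.25), both below 1 CPM in every NTG library, whereas the cardiac L-type channel gene cacna1c gave -0.32, adjusted p = 0.404.

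Of 81 genes of adrenergic and cAMP signalling, 2 were upregulated and 4 downregulated (7.41%), all among cyclases, kinases, their anchors and targets, and none among 35 receptors and G proteins (5 of them at an unadjusted p below 0.05 in edgeR, and 1 called by DESeq2). Adcy7 had 1, 5, 2 and 10 reads in TMEM43-WT and 381, 315 and 388 reads in NTG libraries (log2 fold change -6.23 ± 0.54 SE, adjusted p = 4.16e-05). A second cyclase, adcy8, had 2.1, 2.96, 2.39 and 2.73 CPM in TMEM43-WT and 7.06, 5.03 and 10.6 CPM in NTG (log2 fold change -1.57 ± 0.33 SE, adjusted p = 0.0103). Adcy5 and adcy6a, whose mammalian counterparts are the main cyclases of heart muscle, were not called (log2 differences 0.82 and 0.17).

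The catalytic subunit gene of protein kinase A, prkacab, had 26.2, 18.3, 20.6 and 21.6 CPM in TMEM43-WT and 10.7, 7.45 and 10.7 CPM in NTG (log2 fold change 1.17 ± 0.21 SE, adjusted p = 0.00477), with no overlap. Pde8a, which degrades cAMP, was higher as well, with 33, 33.7, 33.4 and 26.2 CPM in TMEM43-WT and 20.5, 11.6 and 12.8 CPM in NTG (log2 fold change 1.07 ± 0.23 SE, adjusted p = 0.0102). The anchor gene akap7 fell by 0.93 and the transcription factor gene creb1b by 1.24 (adjusted p = 0.0255 and 0.0278). Adrb1, a beta-adrenergic receptor gene, had 2.73 to 4.51 CPM in TMEM43-WT and 1.09 to 5.09 CPM in NTG libraries (adjusted p = 0.879). Its log2 fold change was -0.50 within the 5-month and 1.66 within the older libraries. Of 18 genes called in calcium, channel and cAMP signalling, 8 were called without NTG replicate 3, and atp2a2b, jph2, cacna1aa, adcy7, adcy8 and prkacab were called whichever library was left out.

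In energy metabolism, most called genes were lower in TMEM43-WT ventricles. The share called was above the 8.34% of all genes for fatty acid, glycolysis and creatine kinase genes. It was below that share for genes of oxidative phosphorylation and of the citric acid cycle and pyruvate. Adult heart muscle burns mainly fatty acids, which are taken up, activated to acyl-CoA, passed into mitochondria as carnitine esters and oxidised. Of 66 genes of fatty acid uptake and oxidation, 2 were upregulated and 8 downregulated (15.2%), with a median log2 fold change of -0.26. Without NTG replicate 3, 1 was upregulated and 3 downregulated, with a median of -0.19, and without NTG replicate 2 the counts were 2 and 3, with a median of -0.12. Both carnitine acetyltransferase genes were lower, crata with 46.5, 38.5, 47.6 and 40.4 CPM in TMEM43-WT and 93.4, 69.5 and 68.8 CPM in NTG (log2 fold change -0.84 ± 0.18 SE, adjusted p = 0.0113) and cratb with 5.69, 7.09, 5.8 and 6.92 CPM in TMEM43-WT and 9.48, 11.3 and 11.9 CPM in NTG (log2 fold change -0.77 ± 0.20 SE, adjusted p = 0.0284). The acyl-CoA dehydrogenase gene acadsb had 63.6, 44.4, 47 and 43.7 CPM in TMEM43-WT and 106, 106 and 100.4 CPM in NTG (log2 fold change -1.06 ± 0.20 SE, adjusted p = 0.00635), and its NTG libraries were nearly equal.

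The uptake genes cd36 and slc27a1b were low in all libraries and lower in TMEM43-WT. Cd36 had 0.91, 0.235, 0.046 and 0.419 CPM in TMEM43-WT and 4.35, 3.63 and 1.76 CPM in NTG (log2 fold change -3.02 ± 0.73 SE, adjusted p = 0.0196). Slc27a1b had 0.512, 2.07, 2.72 and 3.48 CPM in TMEM43-WT and 5.87, 15.4 and 7.41 CPM in NTG (log2 fold change -2.11 ± 0.48 SE, adjusted p = 0.0151). Conversely, the acyl-CoA synthetase genes acsl3b and acsl4a rose, acsl3b with 17.1, 18.4, 19.5 and 30.2 CPM in TMEM43-WT and 8.84, 8.94 and 7.45 CPM in NTG (log2 fold change 1.34 ± 0.24 SE, adjusted p = 0.00477) and acsl4a with 34.6, 54.1, 36.2 and 37.7 CPM in TMEM43-WT and 13.9, 7.77 and 14.2 CPM in NTG (log2 fold change 1.76 ± 0.39 SE, adjusted p = 0.0139). Other central genes of this pathway were not called, and fabp3, cpt1b and acadm had log2 fold changes of 0.01, -0.28 and -0.45 (adjusted p = 0.984, 0.749 and 0.147).

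Pdk2a encodes pyruvate dehydrogenase kinase, which restrains the entry of glucose carbon into the citric acid cycle. It had 68.5 to 114 CPM in TMEM43-WT and 707, 274 and 242 CPM in NTG (log2 fold change -2.02 ± 0.42 SE, adjusted p = 0.012). NTG replicate 2 was the highest and the groups were apart, with log2 fold changes of -2.15 within the 5-month and -1.31 within the older libraries. Of 67 glycolysis genes, 2 were upregulated and 5 downregulated (10.4%). The glucose transporter gene slc2a10 had 10.9, 6.95, 8.01 and 5.87 CPM in TMEM43-WT and 25.2, 18.6 and 20.3 CPM in NTG (log2 fold change -1.43 ± 0.23 SE, adjusted p = 0.00211). The others that fell were slc2a12, pygl (glycogen phosphorylase), pfkfb4b and ugp2b, with log2 fold changes from -1.67 to -0.69. Hexokinase 2, hk2, was upregulated with 20.4, 5.4, 7.46 and 10.6 CPM in TMEM43-WT and 6.19, 2.84 and 2.85 CPM in NTG (log2 fold change 1.47 ± 0.42 SE, adjusted p = 0.0439), although the groups overlapped.

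Of 28 genes of creatine and adenylate kinases and related enzymes, 0 were upregulated and 3 downregulated (10.7%). Ckmb had 52.6, 58.8, 115 and 78 CPM in TMEM43-WT and 381, 1213 and 287 CPM in NTG (log2 fold change -3.04 ± 0.43 SE, adjusted p = 0.00139), and its log2 fold change was -3.92 within the 5-month and -1.78 within the older libraries. Ampd3b, an AMP deaminase gene, had 144, 132, 170.4 and 143 CPM in TMEM43-WT and 362, 312 and 232 CPM in NTG (log2 fold change -1.04 ± 0.19 SE, adjusted p = 0.00462). The mitochondrial creatine kinase gene ckmt2a had 985, 569, 662 and 607 CPM in TMEM43-WT and 1660.0, 1105 and 990.4 CPM in NTG (log2 fold change -0.83 ± 0.23 SE, adjusted p = 0.036), with replicate 1 only just below the lowest NTG library. The muscle creatine kinase gene ckma differed by -0.02 (adjusted p = 0.969).

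Of 44 genes of the citric acid cycle and pyruvate, 0 were upregulated and 1 downregulated (2.27%, against 8.34% of all genes). Of 109 oxidative phosphorylation genes, ndufa9b was the single one called (0.917%, log2 fold change -0.74, adjusted p = 0.0461), while 93 had a negative log2 fold change and the median was -0.21. Without TMEM43-WT replicate 1, 7 were called, all lower, with a median of -0.41, and the median was 0.26 within the 5-month and -0.41 within the older libraries. Their summed CPM was 53300 to 94700 in TMEM43-WT and 77200 to 83900 in NTG libraries, so TMEM43-WT libraries lay on both sides of the controls. Ndufs1, a defining member of this list, was not called by edgeR (adjusted p = 0.337). In this group of metabolic genes acadsb, acsl3b, slc2a10, ckmb and ampd3b were called whichever library was left out, and 8 of 20 were called without NTG replicate 3.

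Genes of detoxification changed in both directions. Sulfotransferases transfer a sulfate group from a carrier to steroids and foreign compounds, and cytochrome P450 enzymes oxidise them. Of 66 xenobiotic enzymes, 4 were upregulated and 8 downregulated (18.2%, against 8.34% of all genes), against 2 and 6 without NTG replicate 3 and 2 and 5 without NTG replicate 2. Sult2st1 had 218, 153, 177 and 229 CPM in TMEM43-WT and 21.7, 4.75 and 13.1 CPM in NTG (log2 fold change 3.88 ± 0.57 SE, adjusted p = 0.00212), and sult2st2 had 36.4 to 48.8 CPM in TMEM43-WT and 1.91 to 8.88 CPM in NTG (log2 fold change 3.02 ± 0.50 SE, adjusted p = 0.00338). Both lie on chromosome 12 and hold split reads, so part of 1 gene's reads may be counted for the other. Papss1, the enzyme that makes the sulfate donor, was also higher, with 2.33, 2.63, 3.82 and 2.81 CPM in TMEM43-WT and 1.19, 1.26 and 0.712 CPM in NTG (log2 fold change 1.46 ± 0.42 SE, adjusted p = 0.0421).

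Another sulfotransferase gene, sult1st9, was lower, with 0.171, 0.188, 0.414 and 0.21 CPM in TMEM43-WT and 0.825, 3.44 and 1.34 CPM in NTG (log2 fold change -2.89 ± 0.61 SE, adjusted p = 0.0103). Among cytochrome P450 genes, cyp2x7 was upregulated, with 3.58, 3.85, 2.81 and 3.23 CPM in TMEM43-WT and 0.733, 0.978 and 1.13 CPM in NTG (log2 fold change 1.82 ± 0.43 SE, adjusted p = 0.0184). Cyp2p7 had 1.36, 1.41, 1.56 and 1.85 CPM in TMEM43-WT and 10.1, 13.4 and 6.87 CPM in NTG (log2 fold change -2.70 ± 0.34 SE, adjusted p = 0.000447). Cyp27a7, cyp2aa1 and cyp46a1.1 were downregulated too, with log2 fold changes of -1.77, -1.27 and -1.39.

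Of 62 genes of glutathione metabolism and antioxidant defence, 0 were upregulated and 5 downregulated (8.06%). Gstp1, a glutathione S-transferase, had 240.4, 153, 185 and 194 CPM in TMEM43-WT and 542, 489 and 482 CPM in NTG (log2 fold change -1.39 ± 0.24 SE, adjusted p = 0.00396). Every TMEM43-WT library was below every NTG library, and the log2 fold change was -1.10 within the 5-month and -1.45 within the older libraries. Nqo1, a quinone reductase and, like gstp1, a classical target of the antioxidant transcription factor Nrf2, had 4.83, 3.57, 4.05 and 4.03 CPM in TMEM43-WT and 15, 13.1 and 6.45 CPM in NTG (log2 fold change -1.48 ± 0.30 SE, adjusted p = 0.00864). The Nrf2 gene nfe2l2a itself had 42.6, 33.3, 27.6 and 41.1 CPM in TMEM43-WT and 28.2, 41 and 22.8 CPM in NTG (log2 fold change 0.24 ± 0.25 SE, adjusted p = 0.614), and keap1b, whose product restrains Nrf2, was lower by 0.73 on the log2 scale (adjusted p = 0.0436). Mt2 (metallothionein) and gstt1b also fell, with overlapping groups. The genes called whichever library was left out were gstp1, nqo1, sult2st1, sult2st2, cyp2p7 and cyp27a7, and 7 of 14 were called without NTG replicate 3.

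Several genes of autophagosome formation fell in TMEM43-WT ventricles. Autophagy starts with the Ulk1 kinase complex, proceeds through a lipid kinase complex that contains Atg14 and uses Atg9 vesicles as a membrane source. Of 51 autophagy genes tested, 8 were downregulated (15.7%) and 0 upregulated, 44 had a negative log2 fold change, and the median was -0.50, against -0.01 over all genes. These genes are part of a list of 135 autophagy and lysosome genes. That whole list had 4 upregulated and 8 downregulated members (8.89%), near the 8.34% of all genes. Ulk1a had 11.7, 13.4, 12.2 and 13 CPM in TMEM43-WT and 74.7, 45.7 and 39.9 CPM in NTG (log2 fold change -2.08 ± 0.27 SE, adjusted p = 0.000611). The TMEM43-WT libraries were nearly equal, all NTG libraries were far above them, and the log2 fold change was -2.36 within the 5-month and -1.63 within the older libraries.

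Both atg9 paralogs were lower: atg9a had 12.4, 17.2, 15.1 and 15.1 CPM in TMEM43-WT and 40, 43.5 and 27 CPM in NTG (log2 fold change -1.30 ± 0.28 SE, adjusted p = 0.0119), and atg9b had 5.57, 6.06, 6.26 and 5.24 CPM in TMEM43-WT and 22.5, 25.9 and 13 CPM in NTG (log2 fold change -1.82 ± 0.35 SE, adjusted p = 0.00638). Atg14 (listed as zgc:113944) had 6.6, 3.24, 2.49 and 4.7 CPM in TMEM43-WT and 20.2, 22.8 and 12.1 CPM in NTG (log2 fold change -2.11 ± 0.43 SE, adjusted p = 0.00851). Wipi2, which binds the lipid made by that kinase complex, had 21.9, 32.6, 28.3 and 25.1 CPM in TMEM43-WT and 63.8, 42.9 and 45.9 CPM in NTG (log2 fold change -0.91 ± 0.19 SE, adjusted p = 0.0102). The last called members were the cargo receptor gene nbr1a, which overlapped between the groups (log2 fold change -1.44), and atg101 and rb1cc1, partners of Ulk1 that were chosen after their values were seen (log2 fold changes -0.98 and -0.97). For nbr1a the log2 fold change was -2.16 within the 5-month and -0.12 within the older libraries. The count was 4 of 51 without NTG replicate 2 and 7 without NTG replicate 3.

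The cargo receptor gene sqstm1 had 81.6, 100.5, 99.8 and 91 CPM in TMEM43-WT and 132, 102 and 133 CPM in NTG and was not called (log2 fold change -0.39 ± 0.22 SE, adjusted p = 0.283). Of 61 lysosomal genes 3 were upregulated and 0 downregulated (4.92%), and of 23 vacuolar ATPase genes 1, atp6v0a2a, was upregulated (4.35%). The lysosomal genes were grna (progranulin), gaa (acid alpha-glucosidase) and mcoln1b, a lysosomal channel gene. Mcoln1b had 1.25, 1.08, 0.506 and 0.0839 CPM in TMEM43-WT and 0.138, 0.0931 and 0.0419 CPM in NTG. Grna had 18.5, 32.1, 20.6 and 35.8 CPM in TMEM43-WT and 8.8, 9.03 and 13.2 CPM in NTG (log2 fold change 1.37 ± 0.32 SE, adjusted p = 0.017), and gaa had 9.21, 6.29, 8.79 and 9.4 CPM in TMEM43-WT and 3.57, 3.68 and 5.28 CPM in NTG (log2 fold change 1.01 ± 0.27 SE, adjusted p = 0.0314). For lamp2 and tfeb the log2 difference was 0.34 and -0.43, and neither was called. The tfeb difference was -1.97 within the 5-month and 0.63 within the older libraries.

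Of 49 genes of mitophagy and mitochondrial dynamics, 2 were downregulated, bnip4 and apoob, and 0 upregulated (4.08%, below the 8.34% of all genes). Apoob had 1.88 to 4 CPM in TMEM43-WT and 7.16 to 8.11 CPM in NTG libraries (log2 fold change -1.32, adjusted p = 0.0362). The mitophagy gene pink1 was not called by edgeR (adjusted p = 0.629). Its log2 fold change was -0.57 within the 5-month and 0.009 within the older libraries. Bnip3, a mitophagy receptor induced by hypoxia, had 5.74, 12.5, 9.76 and 10.9 CPM in TMEM43-WT and 19.6, 14.8 and 15.2 CPM in NTG (log2 fold change -0.76 ± 0.28 SE, adjusted p = 0.105). Hif1aa, an alpha subunit of the hypoxia-inducible factor, had 7.79, 8.17, 7.32 and 10.5 CPM in TMEM43-WT and 27.9, 30.7 and 24.2 CPM in NTG (log2 fold change -1.71 ± 0.22 SE, adjusted p = 0.000611). The groups were apart at both ages, with log2 fold changes of -1.91 within the 5-month and -1.48 within the older libraries. Of the genes named here, ulk1a, atg9b, zgc:113944, bnip4 and hif1aa were called whichever library was left out.

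**Figure D2:**
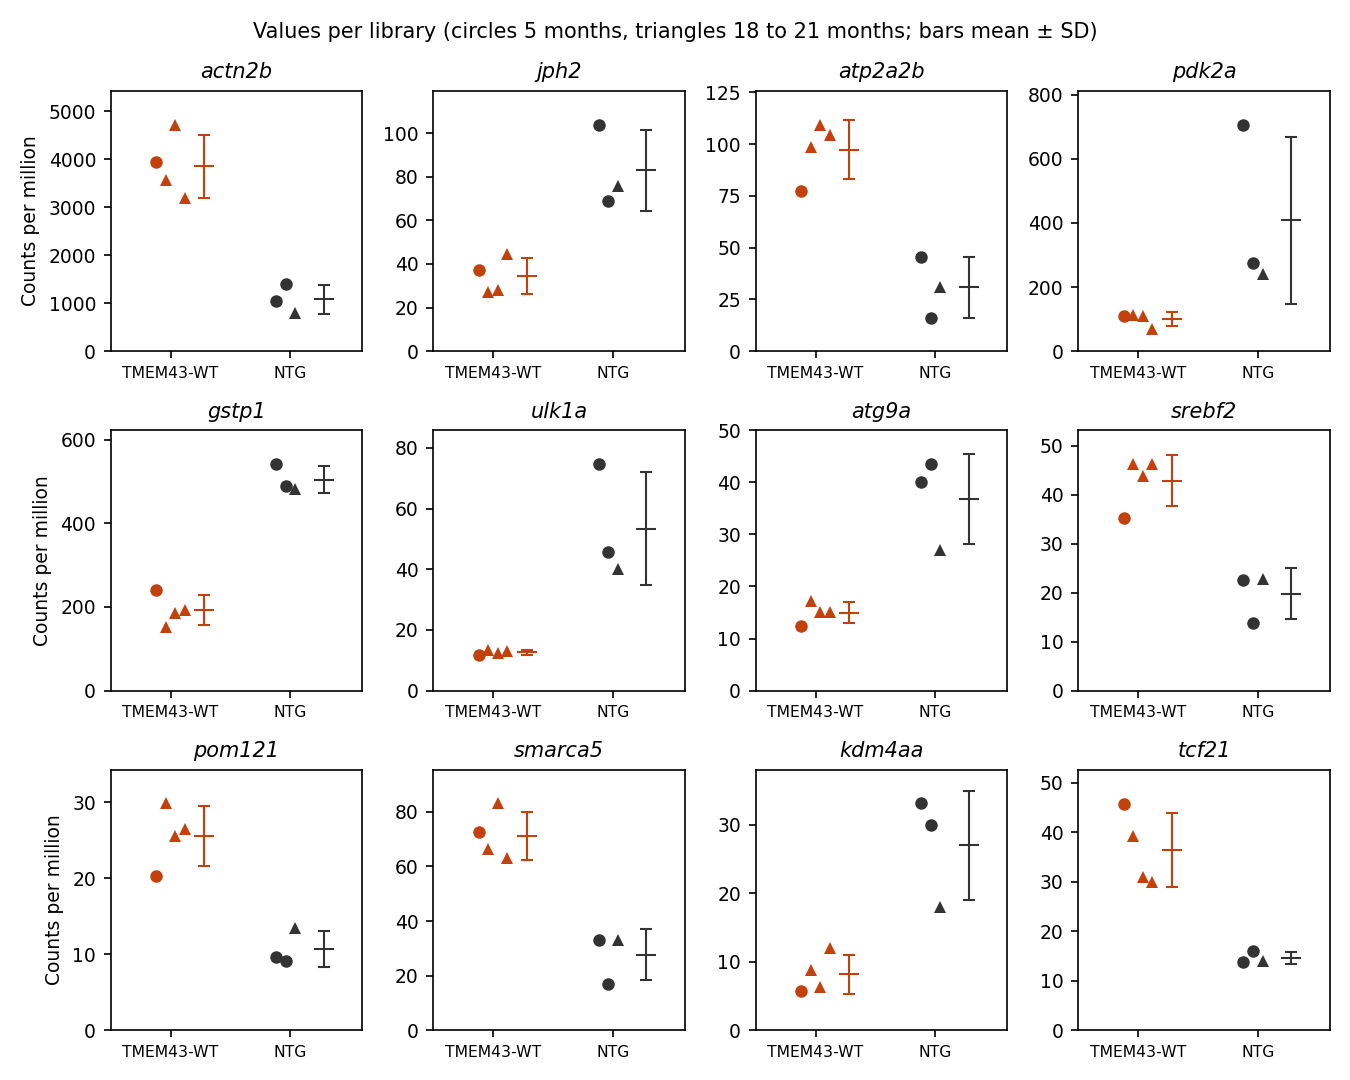
CPM of 12 genes of the groups described, in each TMEM43-WT (left) and NTG library (right). Circles are 5-month and triangles 18- to 21-month libraries, and bars show mean ± SD over 4 and 3 libraries. The groups do not overlap in any panel. All 12 genes were picked from the called genes, of which 94.5% did not overlap, against 21.7% of all tested genes. Actn2b, atp2a2b, srebf2, pom121, smarca5 and tcf21 are higher in TMEM43-WT, and ulk1a shows the tightest TMEM43-WT values, at 11.7 to 13.4 CPM.

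Endoplasmic reticulum genes were called at shares near or below the 8.34% of all genes. Of 80 genes of chaperones and the unfolded protein response, 4 were upregulated and 3 downregulated (8.75%), and of 76 genes of protein entry and secretion 4 were upregulated and 0 downregulated (5.26%). The chaperone genes dnajb11, hyou1 and manf had log2 fold changes of 0.74, 0.65 and 0.90. For manf the log2 fold change was 1.64 within the 5-month and 0.39 within the older libraries. Asns, asparagine synthetase, a target of the stress factor Atf4 in mammals, had 10.3, 9.25, 14.3 and 14.9 CPM in TMEM43-WT and 6.05, 4.93 and 4.35 CPM in NTG (log2 fold change 1.26 ± 0.24 SE, adjusted p = 0.00638). Eif2ak3, the sensor kinase PERK, was lower, with 5.29, 3.33, 5.16 and 7.3 CPM in TMEM43-WT and 11.8, 15.5 and 10.6 CPM in NTG (log2 fold change -1.26 ± 0.26 SE, adjusted p = 0.0101). Herpud1, listed here with degradation genes, was downregulated too. Its log2 fold change was -1.48 within the 5-month and -0.35 within the older libraries. The central chaperone gene hspa5 and the response factor genes xbp1 and atf4b were not called, with log2 fold changes of 0.54, 0.37 and 0.67 and adjusted p of 0.425, 0.593 and 0.0996. Hspa5 and xbp1 had log2 fold changes of 1.54 and 1.11 within the 5-month libraries and -0.28 and -0.29 within the older ones.

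The gene of the signal recognition particle receptor, srpr, had 68.7, 67.8, 49.7 and 42.6 CPM in TMEM43-WT and 20.2, 16.1 and 28.4 CPM in NTG (log2 fold change 1.41 ± 0.25 SE, adjusted p = 0.00461). The COPII coat genes sec24d and sar1b, which carry proteins out of the endoplasmic reticulum, and the translocon gene sec63 also rose, with log2 fold changes of 1.35, 0.75 and 0.84. Srebf2, the transcription factor that activates cholesterol synthesis, had 35.3, 46.3, 43.8 and 46.2 CPM in TMEM43-WT and 22.7, 13.7 and 22.9 CPM in NTG (log2 fold change 1.12 ± 0.21 SE, adjusted p = 0.00638), and all TMEM43-WT libraries were higher. Mbtps2, the protease that releases it, was lower, with 2.05, 3.8, 2.53 and 2.56 CPM in TMEM43-WT and 6.42, 7.59 and 5.95 CPM in NTG (log2 fold change -1.28 ± 0.29 SE, adjusted p = 0.0149).

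Of 54 sterol genes 3 were upregulated and 1 downregulated (7.41%), and besides srebf2 the increases were ebp, an isomerase of cholesterol synthesis (1.53, adjusted p = 0.0272), and the receptor gene ldlrb (1.43, adjusted p = 0.0376), given as log2 fold changes. Hmgcs1, an early enzyme of the pathway, was not called (0.15). Asns, eif2ak3, srpr and srebf2 were called whichever library was left out, and 6 of 15 genes were called without NTG replicate 3.

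The nuclear transport list had the largest share of calls among the lists of at least 20 tested genes, all of them increases. Nuclear pores are built of nucleoporins, and importins and exportins carry proteins through them with the GTPase Ran. Of 67 genes of nuclear pores and transport, 15 were upregulated and 0 downregulated (22.4%), the median log2 fold change was 0.38, and 56 were positive. Without NTG replicate 3, 2 were called with a median of 0.32, without TMEM43-WT replicate 5 5 and without NTG replicate 2 7, so the direction was shared but most single calls rested on these libraries. The median was 0.58 within the 5-month libraries and smaller, 0.26, within the older libraries.

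Pom121, a membrane nucleoporin that anchors the pore in the nuclear envelope, had 20.3, 29.9, 25.6 and 26.5 CPM in TMEM43-WT and 9.62, 9.12 and 13.5 CPM in NTG (log2 fold change 1.25 ± 0.20 SE, adjusted p = 0.0022). The exporter gene cse1l, which returns importin alpha to the cytoplasm, had 76.9, 66.9, 85.3 and 79 CPM in TMEM43-WT and 43.8, 32.1 and 47.9 CPM in NTG (log2 fold change 0.90 ± 0.17 SE, adjusted p = 0.00689). The importin alpha genes kpna3 and kpna1 had log2 fold changes of 1.12 and 0.95, the importin beta gene kpnb1 of 0.58, and the nucleoporin genes nup153 and nup93 of 0.89 and 0.88. Ran had 755, 649.8, 682 and 508 CPM in TMEM43-WT and 522, 548 and 682 CPM in NTG (log2 fold change 0.15 ± 0.19 SE, adjusted p = 0.677), and xpo1b gave 0.16, adjusted p = 0.661.

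Of 144 splicing genes 11 were upregulated and 0 downregulated (7.64%, below the 8.34% of all genes), with a median log2 fold change of 0.22 and 106 positive values. Hnrnpa0b, an RNA-binding protein gene, had 266 to 327 CPM in TMEM43-WT and 115 to 201 CPM in NTG (log2 fold change 0.95 ± 0.19 SE, adjusted p = 0.00739). Without NTG replicate 3, and likewise without TMEM43-WT replicate 5, 1 splicing gene was called, and without NTG replicate 2 there were 2. The others among the 6 with the smallest p were cwc22, hnrnpa0a, prpf38b, dhx15 and hnrnpub, with log2 fold changes from 0.66 to 0.84.

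Among chromatin genes, smarca5, chd4a, smarca4a, chd1, carm1 and prmt1 were among those that rose, and kdm4aa, kdm4ab, kdm6a and hdac9b among those that fell. Of 150 genes, 13 were upregulated and 5 downregulated (12%), against 2 and 4 without NTG replicate 3 and 5 and 4 without NTG replicate 2. Smarca5, the ATPase of ISWI complexes, had 72.6, 66.5, 83.1 and 63 CPM in TMEM43-WT and 33.2, 17 and 32.9 CPM in NTG (log2 fold change 1.36 ± 0.22 SE, adjusted p = 0.00211). Chd4a, the ATPase of the NuRD complex, had 38.9 ± 4.05 CPM (SD, n = 4) in TMEM43-WT and 17.9 ± 3.11 CPM (SD, n = 3) in NTG (log2 fold change 1.12 ± 0.17 SE, adjusted p = 0.002). Smarca4a and chd1 rose by 0.74 and 1.06, and the methyltransferase genes carm1 and prmt1 by 0.87 and 0.93 on the log2 scale.

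Kdm4aa, a demethylase of histone H3 lysines, had 5.69, 8.83, 6.31 and 12 CPM in TMEM43-WT and 33.1, 29.9 and 18 CPM in NTG (log2 fold change -1.72 ± 0.27 SE, adjusted p = 0.00189). Its paralog kdm4ab had 7.17, 7.51, 6.77 and 10.8 CPM in TMEM43-WT and 21.8, 23 and 16.9 CPM in NTG (log2 fold change -1.35 ± 0.20 SE, adjusted p = 0.00126). The deacetylase gene hdac9b had 34.4, 36.8, 32 and 34 CPM in TMEM43-WT and 71.6, 81.3 and 55.6 CPM in NTG (log2 fold change -1.02 ± 0.16 SE, adjusted p = 0.00211). In all 3 genes every TMEM43-WT library was below every NTG library, and kdm6a was lower too (log2 fold change -0.97, adjusted p = 0.037).

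Among 72 cardiac transcription factors 1 was upregulated and 2 downregulated (4.17%). Foxp1a had 11.4, 12.1, 10.3 and 11.7 CPM in TMEM43-WT and 30.7, 23.8 and 18 CPM in NTG (log2 fold change -1.09 ± 0.28 SE, adjusted p = 0.0236), and gata6 had 44.7, 51.7, 48.2 and 42.5 CPM in TMEM43-WT and 67.9, 70.7 and 62.5 CPM in NTG (log2 fold change -0.52 ± 0.14 SE, adjusted p = 0.0366). Irx5a was higher by 0.88 (adjusted p = 0.0499), close to the threshold, and by 1.41 within the 5-month and 0.33 within the older libraries. Nkx2.5 had 122, 144, 162 and 152 CPM in TMEM43-WT and 212, 196 and 186 CPM in NTG (log2 fold change -0.45 ± 0.16 SE, adjusted p = 0.09), without overlap. It was not called by edgeR and was called by DESeq2. The genes of this group called whichever library was left out were pom121, cse1l, hnrnpa0b, chd4a, smarca5, kdm4ab, kdm4aa, hdac9b and LOC100536129, the last a gene without a symbol (log2 fold change -1.76), and 9 of 28 were called without NTG replicate 3.

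**Figure D3:**
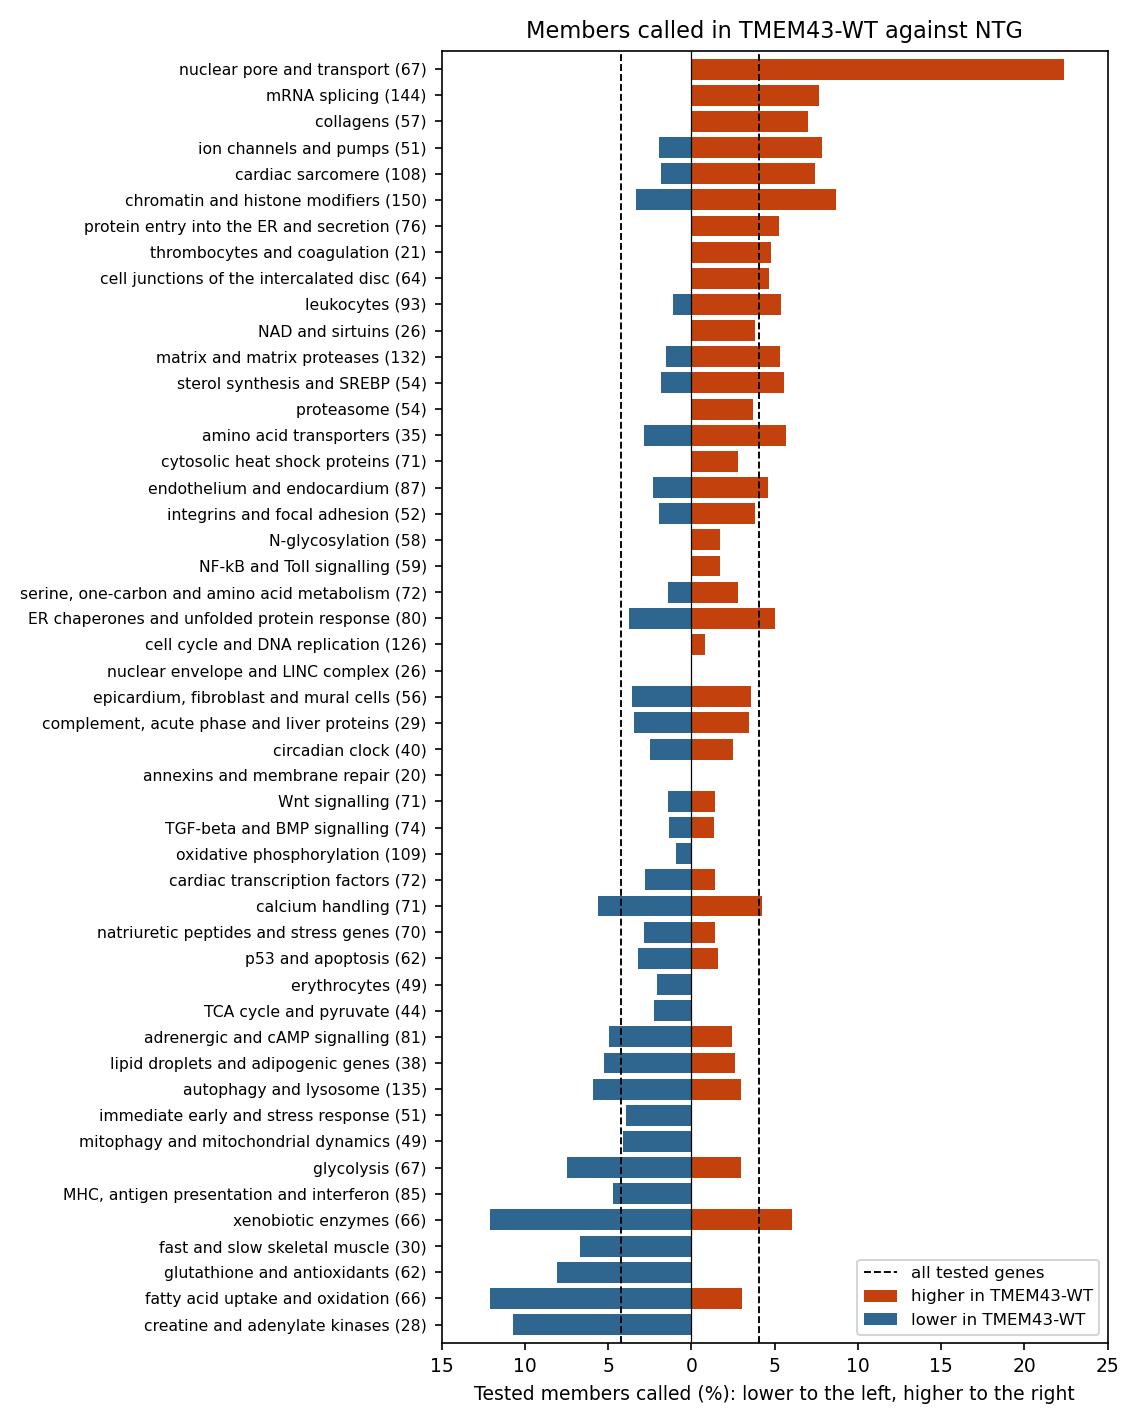
Share of tested members called in TMEM43-WT against NTG (%), in each gene list with at least 20 tested members (number in brackets), upregulated to the right and downregulated to the left. Dashed lines mark the shares over all tested genes, 4.09% upregulated and 4.24% downregulated. Nuclear pore and transport genes reach 22.4% upregulated, and fatty acid, xenobiotic and creatine kinase genes reach 10.7% to 12.1% downregulated.

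Leukocyte genes mostly had higher values in TMEM43-WT, and genes of leukocytes, matrix and interferon signalling were called at shares below the 8.34% of all genes, with tcf21, vcanb and irf2 among the single genes called. Of 93 leukocyte genes 5 were upregulated and 1 downregulated (6.45%), the median log2 fold change was 0.665 and 71 were positive. The downregulated member was mertka, listed here with macrophage genes. Its log2 fold change was -2.70 within the 5-month and -0.98 within the older libraries. The summed level of the list was 1480 to 2420 CPM in TMEM43-WT and 1250 to 1460 CPM in NTG libraries. The pan-leukocyte gene ptprc had 11, 16.7, 10.4 and 17.1 CPM in TMEM43-WT and 6.09, 5.31 and 7.79 CPM in NTG (log2 fold change 1.11 ± 0.27 SE, adjusted p = 0.0196). Apoeb, an apolipoprotein gene expressed by macrophages and microglia, had 12.7, 14.5, 6.77 and 11.3 CPM in TMEM43-WT and 2.89, 1.63 and 4.35 CPM in NTG (log2 fold change 1.93 ± 0.41 SE, adjusted p = 0.0104).

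The macrophage marker mpeg1.1 had 18.3, 13.2, 8.56 and 13.4 CPM in TMEM43-WT and 4.81, 7.77 and 8.21 CPM in NTG (log2 fold change 0.94 ± 0.29 SE, adjusted p = 0.0557). It was not called by edgeR, except without TMEM43-WT replicate 5, and was called by DESeq2. The leukocyte marker lcp1 overlapped between the groups (0.66, adjusted p = 0.192, log2 fold change). The neutrophil marker mpx was at 1.01 to 1.65 CPM in TMEM43-WT and 0.0458 to 0.791 CPM in NTG libraries, and lyz at 1.46 to 11.9 CPM in TMEM43-WT and 0.126 to 9.17 CPM in NTG libraries. Mmp9 and mmp13a, counted here with neutrophil and macrophage genes, were called at the values given above. Without NTG replicate 3, or without NTG replicate 2, 1 leukocyte gene was called.

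The epicardial and fibroblast transcription factor gene tcf21 had 45.8, 39.2, 31 and 29.9 CPM in TMEM43-WT and 13.8, 16 and 14 CPM in NTG (log2 fold change 1.32 ± 0.20 SE, adjusted p = 0.00169). Every TMEM43-WT library was above every NTG library, and the log2 fold change was 1.62 within the 5-month and 1.25 within the older libraries. Wt1a, another epicardial transcription factor gene, was lower, with 1.42, 1.08, 0.691 and 0.881 CPM in TMEM43-WT and 2.34, 3.31 and 2.22 CPM in NTG (log2 fold change -1.37 ± 0.41 SE, adjusted p = 0.0479). Of the smooth muscle genes, cnn1b (calponin) had 76.3, 93, 80.7 and 92.3 CPM in TMEM43-WT and 48.2, 31.5 and 43.7 CPM in NTG (log2 fold change 1.06 ± 0.21 SE, adjusted p = 0.00716), whereas the myosin light chain gene myl9b fell by 1.35 (adjusted p = 0.012). The log2 fold change of myl9b was -1.645 within the 5-month and -0.40 within the older libraries. The whole list of 56 epicardial, fibroblast and mural genes had 2 upregulated and 2 downregulated members and a summed level of 9490 to 17800 CPM in TMEM43-WT and 12500 to 14300 CPM in NTG libraries.

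Of 87 endothelial and endocardial genes, 4 were upregulated and 2 downregulated (6.9%). Sox18, id2a and jag2a rose, with log2 fold changes of 0.78, 0.92 and 1.41, and notch1a and lmo2 fell, with -0.84 and -0.77. The defining marker kdrl had 172 to 311 CPM in TMEM43-WT and 186 to 216 CPM in NTG libraries and was not called (adjusted p = 0.57).

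In the extracellular matrix, 7 of 132 genes were upregulated and 2 downregulated (6.82%). Vcanb (versican) had 16.7, 20.9, 9.67 and 17.3 CPM in TMEM43-WT and 5.5, 7.54 and 7.96 CPM in NTG, a 2.3-fold ratio of means (SE 0.24 on the log2 scale, adjusted p = 0.00848). Emilin2a had 57.4, 70.4, 45.4 and 67.5 CPM in TMEM43-WT and 20.5, 13 and 33.3 CPM in NTG (log2 fold change 1.43 ± 0.37 SE, adjusted p = 0.0278), and thbs1b (thrombospondin) rose by 0.94 with an adjusted p of 0.0483. Cilp, encoding a cartilage matrix protein that fibroblasts of the mammalian heart also make, was lower, with 8.59, 17.6, 20.9 and 36.4 CPM in TMEM43-WT and 92.6, 39.3 and 56.9 CPM in NTG (log2 fold change -1.59 ± 0.43 SE, adjusted p = 0.0344).

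The protease gene adam12 was lower, with 0.227, 0.376, 0.138 and 0.0839 CPM in TMEM43-WT and 1.6, 1.82 and 1.34 CPM in NTG (log2 fold change -2.93 ± 0.50 SE, adjusted p = 0.0033). Of 57 collagen genes 4 were upregulated (7.02%) and 0 downregulated, among them the cartilage-type genes col9a2 (0.645 to 2.33 CPM in TMEM43-WT and 0.0458 to 0.293 CPM in NTG libraries) and col2a1b (8.52 to 11.2 CPM in TMEM43-WT and 5.82 to 6.57 CPM in NTG libraries). The main fibrillar collagen gene col1a1a had 739, 505, 326 and 378 CPM in TMEM43-WT and 500.1, 764 and 466 CPM in NTG (log2 fold change -0.24 ± 0.28 SE, adjusted p = 0.646), with overlapping groups.

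Of 85 genes of antigen presentation and interferon signalling, 4 were downregulated and 0 upregulated (4.71%), and 59 had a negative log2 fold change. The median was -0.27, and without NTG replicate 3 it was -0.02 and 2 were downregulated. Irf2, a repressor of interferon-induced genes, had 10.2, 11.3, 11.7 and 13.9 CPM in TMEM43-WT and 44.7, 31.7 and 32.3 CPM in NTG (log2 fold change -1.62 ± 0.23 SE, adjusted p = 0.00101). Nlrc5, the transactivator of MHC class I genes, had 3.7, 4.46, 4.83 and 4.57 CPM in TMEM43-WT and 13.1, 15 and 9.21 CPM in NTG (log2 fold change -1.50 ± 0.31 SE, adjusted p = 0.00916). Irf9 and tapbpl fell by 1.13 and 1.77, while b2m, the light chain of MHC class I, had 506, 753, 634 and 676 CPM in TMEM43-WT and 396, 575 and 618 CPM in NTG (log2 fold change 0.28 ± 0.33 SE, adjusted p = 0.652). Among the genes of other cell types and matrix, apoeb, vcanb, adam12, col9a2, tcf21, cnn1b, irf2 and nlrc5 were called whichever library was left out, and 11 of 28 were called without NTG replicate 3.

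Compared with the mutant lines in the same edgeR fit, TMEM43-WT differed in 144 genes (0.826%) from TMEM43-P111L and in 282 (1.62%) from TMEM43-S358L. The genes named here, 11 in all and all drawn in the plot by line, were chosen because they passed the test against NTG and against both mutant lines with the same sign, so their values are a description. Sult2st1 had 218, 153, 177 and 229 CPM in TMEM43-WT, 9.01, 7.67 and 18.7 CPM in TMEM43-P111L, 46.1, 22.6, 18.6 and 62.7 CPM in TMEM43-S358L and 21.7, 4.75 and 13.1 CPM in NTG. The related gene sult2st2 had 2.22 to 4.21 CPM in TMEM43-P111L and 4.36 to 14.7 CPM in TMEM43-S358L, with log2 fold changes of 3.58 and 2.28 for TMEM43-WT against them. Actn2b, at 3937, 3561, 4726 and 3201 CPM in TMEM43-WT, had 977, 640.1 and 1093 CPM in TMEM43-P111L and 623, 869, 1063 and 714 CPM in TMEM43-S358L, so that both mutant lines lay within or below the range of the controls. Crip2, a LIM domain gene of heart and vessels, had 279 to 476 CPM in TMEM43-WT, 142 to 193 CPM in TMEM43-P111L, 200.0 to 239.5 CPM in TMEM43-S358L and 104 to 189 CPM in NTG.

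Slc25a51b, a mitochondrial NAD carrier gene, had 5.69 to 16.7 CPM in TMEM43-WT, 3.65, 2.56 and 1.76 CPM in TMEM43-P111L, 3.09, 3.24, 2.02 and 2.1 CPM in TMEM43-S358L and 3.67, 3.03 and 2.3 CPM in NTG, and its call against NTG was lost without NTG replicate 3 or 4. Ccl39.7, a chemokine locus that the annotation lists as a long non-coding RNA, was at 6.25 to 12.6 CPM in TMEM43-WT and at 2.94 to 3.61 CPM in TMEM43-P111L, 2.06 to 4.83 CPM in TMEM43-S358L and 1.77 to 3.48 CPM in NTG libraries. Hif1aa had 14 to 21.2 CPM in TMEM43-P111L and 14.9 to 25.5 CPM in TMEM43-S358L, above every TMEM43-WT library and, except for 1 TMEM43-S358L library, below every NTG library, and its log2 fold change was -1.08 against TMEM43-P111L, -1.14 against TMEM43-S358L and -1.71 against NTG.

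Adcy7 had 10.5, 2.21 and 6.35 CPM in TMEM43-P111L and 7.37, 4.84, 8.07 and 8.14 CPM in TMEM43-S358L, against below 0.5 CPM in every TMEM43-WT library and 14.7 to 17.5 CPM in NTG libraries. Ccdc39 had 2.56, 0.563, 1.93 and 1.76 CPM in TMEM43-WT, 7.98, 11.4 and 9.38 CPM in TMEM43-P111L, 7.87, 8.56, 7.49 and 12.2 CPM in TMEM43-S358L and 10.4, 7.5 and 14.8 CPM in NTG. Mgat4b, a glycosyltransferase gene, had 1.65, 2.68, 1.52 and 2.69 CPM in TMEM43-WT, 17.6, 10.6 and 11 CPM in TMEM43-P111L, 3.13, 6.33, 14.3 and 10.5 CPM in TMEM43-S358L and 16.2, 8.98 and 13.2 CPM in NTG, and 1 TMEM43-S358L library lay close to TMEM43-WT. C17h14orf159 averaged 19.5 ± 10.5 CPM in TMEM43-WT (SD, n = 4), with replicate 1 the highest, 55.9 to 60.8 CPM in TMEM43-P111L, 42.3 to 87.5 CPM in TMEM43-S358L and 63.4 ± 24.6 CPM in NTG libraries (SD, n = 3).

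Other genes did not pass the test against both mutant lines. Ulk1a had 9.4 to 16.9 CPM in TMEM43-P111L and 12.2 to 26.8 CPM in TMEM43-S358L libraries, and the test was passed against neither (log2 fold changes -0.04 and -0.65, adjusted p = 0.981 and 0.269). Tcf21 had 29.3 to 44.2 CPM in TMEM43-P111L and 27.7 to 33.4 CPM in TMEM43-S358L libraries, with log2 fold changes of 0.06 and 0.20 for TMEM43-WT against them. Jph2 differed from TMEM43-P111L (log2 fold change -1.46, adjusted p = 0.0026), where it had 112, 86.2 and 84.3 CPM, and the difference from TMEM43-S358L, where it had 50.9, 56, 71.8 and 53.4 CPM, did not pass (-0.76, adjusted p = 0.0724). Pom121 differed from TMEM43-S358L (log2 fold change 0.80, adjusted p = 0.0346) and had 0.12 against TMEM43-P111L (adjusted p = 0.902).

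**Figure D4:**
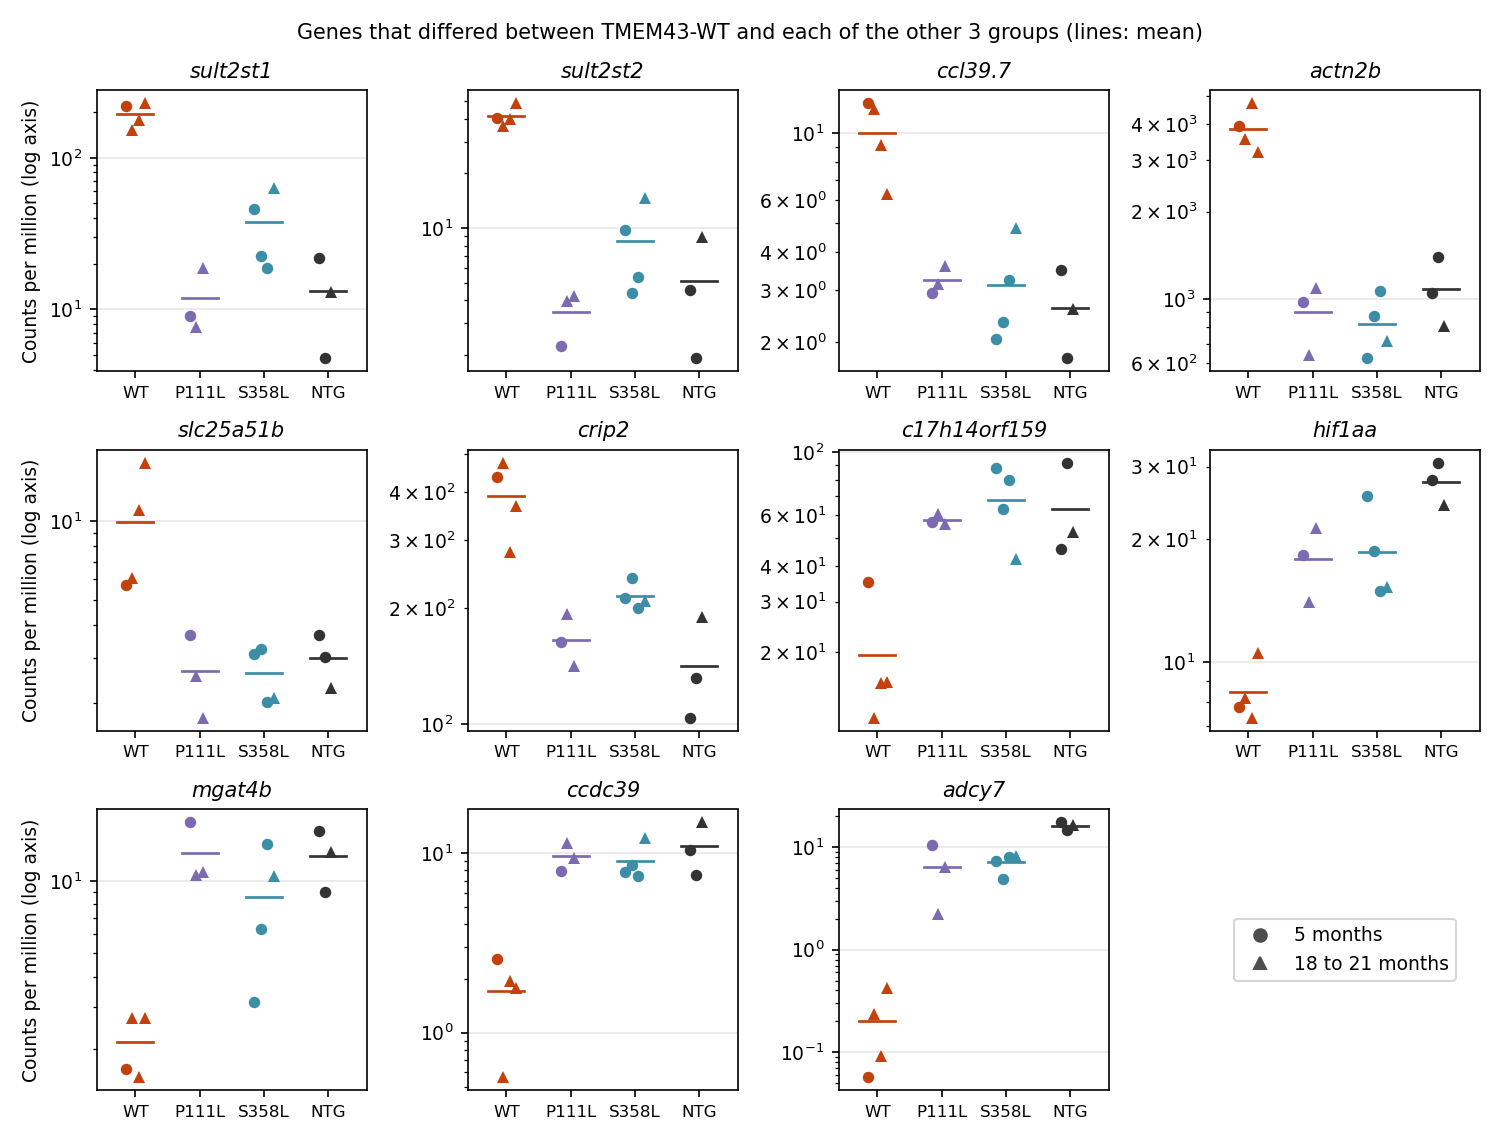
CPM (log axis) of 11 genes that differed between TMEM43-WT and each of the other groups, in TMEM43-WT (4 libraries), TMEM43-P111L (3), TMEM43-S358L (4) and NTG (3). Circles are 5-month and triangles 18- to 21-month libraries, and lines are means. The choice of genes required the separation of TMEM43-WT. The mean levels of hif1aa and adcy7 in the mutant lines lie between TMEM43-WT and NTG, and actn2b is at or below the NTG range there.

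By position, DEGs were spread over all chromosomes, from 5.38% to 13.8% of tested genes on each nuclear chromosome, and on the mitochondrial genome 4 of 22 tested genes (18.2%) were called, all 4 of them lower. In 275 windows of 5 Mb with at least 20 tested genes, the mitochondrial genome counted as 1 of them, the median share was 7.48%, 6 windows had 0 DEGs, and 4 exceeded 20%. The window with the largest share, at the start of chromosome 3 of GRCz11 (1 to 5000000), had 34 of 88 genes called, and its genes with the smallest p were zgc:172051, si:dkey-88j15.3 and zgc:172253, the last of which had 4.43, 3.52, 7.23 and 5.03 CPM in TMEM43-WT and 0.0916, 0 and 0.251 CPM in NTG. All 3 genes hold split reads, so that their counts are uncertain.

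The second window, on chromosome 10 from 20000001 to 25000000, had 18 upregulated and 4 downregulated of 83 genes (26.5%). It contains the gamma protocadherin genes pcdh1g from 21650828 to 21820057, a cluster of cell adhesion genes whose members share their last exons. Of 15 members tested 14 were upregulated, with log2 fold changes of 1.27 to 1.62, and their summed CPM was 33.2 to 74.2 in TMEM43-WT and 19.7 to 22.5 in NTG libraries. All 15 members hold split reads and are not independent of each other. The same window holds etf1b, a translation termination factor gene with 246, 233, 252 and 198 CPM in TMEM43-WT and 82.5, 78.5 and 151 CPM in NTG (log2 fold change 1.16 ± 0.23 SE, adjusted p = 0.007), and dmtn, which encodes the actin-bundling protein dematin and had 8.42, 8.31, 9.07 and 10.7 CPM in TMEM43-WT and 21.2, 20.3 and 21.7 CPM in NTG (log2 fold change -1.21 ± 0.23 SE, adjusted p = 0.00689). The third window, on chromosome 14 from 15000001 to 20000000, had 8 of 39 genes called, with smtnl1, mgat4b and uvssa (log2 fold change -1.54, adjusted p = 0.0213) in front.

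Several gene groups gave few or 0 calls. Of 20 annexin and membrane repair genes and of 16 neural genes, 0 were called by edgeR (1 at an unadjusted p below 0.05 in each list), and DESeq2 called 1 and 0, and of 126 cell cycle genes 1 was upregulated. Genes of fast and slow skeletal muscle, of erythrocytes, and of complement, acute phase and liver proteins showed no common direction. In that order, 0 and 2, 0 and 1, and 1 and 1 members were up- and downregulated of 30, 49 and 29 tested. Of 15 cytosolic HSP70 and HSP90 genes all had positive log2 fold changes with a median of 0.96, and 1 was called by edgeR and 2 by DESeq2. Their median was 1.45 within the 5-month and 0.0038 within the older libraries, and 0.61 without TMEM43-WT replicate 1, the 5-month library. Of all 71 cytosolic heat shock genes edgeR called 2 and DESeq2 8, all higher, and without TMEM43-WT replicate 1 edgeR called 2 higher and 2 lower. The defining markers myhz1.1, myhz1.2, lck, cd79a, apoa1a and elavl3 of skeletal muscle, lymphocytes, liver and neurons were too low to be tested.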

How the data were processed

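RNA was read as stranded mRNA libraries (TruSeq) from pooled ventricles, single-end. In the authors' processing, Cutadapt 2.5 trimmed the reads, STAR 2.7.2b placed them on GRCz11, and featureCounts 1.6.4 gave counts per gene. The deposited values are expected counts: 13405 of 39289 features are not whole in some library, as split reads would give, and these features hold 77.6% of reads. How reads with several targets and the strand were handled is not given in the sources used here. Counts were rounded to whole numbers. Genes passing filterByExpr by genotype (17437) were fitted over all 14 libraries with edgeR 4.0.16 (R 4.3.3), with TMM scaling, robust quasi-likelihood tests and Benjamini-Hochberg adjustment over all of them. A gene was called at adjusted p below 0.05 and a log2 fold change of at least 0.05 in size. CPM values are TMM-scaled and not per length, so levels of different genes are not compared. The contrast of a call compares the 4 TMEM43-WT and 3 NTG libraries, while its spread was estimated over all 14. In a fit of those 7 libraries alone, 895 of the 1454 genes were called again.

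The genes named were, by rule, the 12 largest changes in each direction (called, no overlap, mean CPM of 5 or more), in each list up to 6 called members per direction with the smallest p and defining members, up to 6 per direction that passed the test against every other group, and the 3 with the smallest p in each of 3 windows. The comparison, the 51 gene lists (4034 of 4152 entries found, 3194 distinct genes tested) and the tests were chosen with earlier results of these data known. The study describes 5-month fish, while the labels give 18 to 21 months for 4 of the 7 libraries, and the labels were followed. The table was searched for other per-sample columns, and there were 0. Alternatives were DESeq2 1.42.0, limma-voom (limma 3.58.1), other scaling, filters, sample sets, age as a covariate, a replicate block and leaving out each library. The steps were tested on simulated data.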

Additional observations from a re-analysis of the deposited data

Results flagged for a closer look

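Of 232 genes selected for naming and library measures examined, 16 (6.9%) had 1 TMEM43-WT library set apart from the other 3, by a gap larger than Dixon's critical value. About 1 in 20 would be set apart by chance. Replicate 1, the 5-month TMEM43-WT library, was the separate library in 8 of them. It was high for mmp13a (40.26 CPM), mmp9 (34.12 CPM), acadsb (63.57 CPM), manf (32.75 CPM), sec24d (35.37 CPM) and c17h14orf159 (35.08 CPM), and low for chd1 (19.39 CPM) and si:dkey-88j15.3 (1.933 CPM). Replicate 4 was high for bnip4 (6.432 CPM) and acsl4a (54.09 CPM). Replicate 5 was high for adrb1 (4.512 CPM), sult1st9 (0.4144 CPM) and smarca4a (61.97 CPM). Replicate 6 was low for tmem43 (10.87 CPM), pde8a (26.22 CPM) and pdk2a (68.55 CPM).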

How the results depend on the processing

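Against 1454 called genes (714 up, 740 down), DESeq2 called 2392 (1214 up, 1178 down). The fit of the 7 TMEM43-WT and NTG libraries alone called 975 (449 up, 526 down), the 5-month libraries alone 8 (6 up, 2 down), the 18- to 21-month libraries alone 377 (177 up, 200 down) and genes with whole counts 577 (259 up, 318 down). Leaving out 1 library gave 707 to 1446 called genes, with 317 to 728 up and 387 to 718 down. Leaving out TMEM43-WT replicate 1 and NTG replicate 3 together, an alternative chosen after seeing the data, gave 605 (280 up, 325 down). A replicate block gave 26 (16 up, 10 down). TMEM43-WT and NTG share only number 4 and no source ties numbers to a shared batch. Of 176 called genes selected for naming, not all of them printed above, 176 were called by DESeq2, 155 by limma-voom, 145 with age as a covariate and 87 without NTG replicate 3. The counts given above for each group of genes without NTG replicate 3 rest on the same selection. Whole counts in every library were held by 85 of the 176. The others, actn2b, ckmb and atp2a2b among them, hold values that are not whole, and split reads are pointed out above for only some genes. The fit of genes with whole counts tested only 9352 genes, against 17437 in the main fit. In it 77 of the 85 genes were called again. With 4 and 3 pools of differing age, age and group are partly confounded, and most calls cannot be checked within an age.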

Other observations

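Among the tested genes, 98 of 700 long non-coding RNAs (14.0%) were called in TMEM43-WT against NTG, and 1334 of 16566 protein-coding genes (8.05%). Whether the difference between TMEM43-WT and NTG itself differed with age was examined with an interaction term in edgeR. That test cannot decide the question, because NTG holds a single old library and TMEM43-WT a single young one. Reads of the mitochondrial genome were 0.1915% to 0.4458% of all reads in TMEM43-WT and 0.3902% to 0.766% in NTG libraries, and their part in the results was not tested.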
